A study of Bos taurus with 21 samples.

Results

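The translation initiation factors were taken as every gene symbol in the count tables that starts with EIF followed by a digit. The rule found 48 of the 13570 listed genes. The RNA came from milk somatic cells, the cells shed into milk, of 21 Holstein cows, 1 sample per cow. The cows formed a high yielding group (HY, 9 cows) and a low yielding group (LY, 12 cows) and differed in no treatment. The breeding value of milk yield, given without a unit, was 181.118 to 468.053 for the HY cows and -404.27 to 86.92 for the LY cows. Parity was 2 to 4 in both groups. The lactation period was 41 to 268 days in HY and 52 to 270 days in LY. The age of the cows is not given in the sources used here. EIF3L had been picked out for its relation with milk yield in these same cows, so its own relation with yield is described here and is not independent evidence. The question asked of the family was whether the other members moved with yield as EIF3L did, and how the members related to lactation period and to the casein share of the library.

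Initiation brings a ribosome to the start codon of a messenger RNA. The EIF2 complex carries the initiator transfer RNA to the small ribosomal subunit, EIF2B reloads EIF2 with GTP, and the EIF2 kinases stop that step by phosphorylating EIF2 under stress. The EIF3 complex is a scaffold of many subunits on the small ribosomal subunit. EIF4E binds the cap of the messenger, EIF4A unwinds it, EIF4B and EIF4H stimulate EIF4A, and the EIF4E-binding proteins hold EIF4E back. EIF1 and EIF1A act in the scanning for the start codon, EIF5 triggers the GTP hydrolysis of EIF2, and EIF6 keeps free large subunits from joining. Milk secretory cells make large amounts of a few milk proteins, and the control of initiation through nutrients and hormones has long been studied in the mammary gland.

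The symbol rule also took in genes that are not initiation factors in the strict sense. EIF2C1, EIF2C2 and EIF2C3 are older names of the argonautes AGO1, AGO2 and AGO3, which carry small RNAs and silence messengers. EIF4A3 is the helicase of the exon junction complex, a mark left by splicing, and EIF5A acts mainly in elongation. EIF3F, EIF4G1, EIF4G3, EIF5B, EIF2B5 and EIF2AK4 were not analysed here, so that the EIF3, EIF4 and EIF2B groups were incomplete. EIF3CL is listed in RefSeq with EIF3C as a synonym. EIF1AX and EIF1AY, EIF1 and EIF1B, EIF4A1 and EIF4A2, and EIF5A and EIF5A2 are related in sequence, and reads shared within such a pair could have been split or lost in counting.

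Of the 48 members, EIF1AY had no count in any cow, which allows up to 3 counts per library. The other 47 entered the tests. Of these, 45 had counts in all 21 cows, and 44 had at least 10 counts throughout. The members below that level were EIF2C1, EIF2C3 and EIF5A2. The libraries held 7878557 to 28541904 counts. Levels are given as CPM, a count relative to the total of its library, scaled with TMM factors between 0.460 and 1.48. The lowest factor belonged to HY cow 3262, in which 44.15% of counts fell on the 4 casein genes. The casein share was lowest in HY cow 3235, at 0.0876%, and its median was 4.34% for HY cows and 11.04% for LY cows. No 2 libraries matched within sampling noise. Markers of secretory epithelium, neutrophils, macrophages and T cells were all detected, so that the libraries were of mixed cells, and in such bulk samples fewer cells of a type and less RNA per cell cannot be told apart. The summed level of 10 epithelial markers other than the caseins was 916 to 474700 CPM among HY cows and 1737 to 205200 among LY cows.

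Together the levels of the members summed to 7529 to 13549 TMM-scaled CPM, with a median of 9245. Because of the scaling, this sum is not the part of a library's counts that fell on the members. The highest sum, in HY cow 3280, came with a low TMM factor of 0.4983. The median of the sum was 10224 CPM in HY and 8843 in LY, and the ranges of the groups overlapped. The 12 EIF3 subunits summed to between 2069 and 3577 CPM in HY and between 2000 and 2867 in LY. No value of a gene was corrected for transcript length, so levels of different members were not ranked. The members differed widely in how much they varied. EIF3L had the narrowest range of all members with a count in every cow, from 112 to 205 CPM, a 1.84-fold range. EIF2B4, a subunit of the exchange factor, ranged 2.23-fold and EIF4A3 2.26-fold. At the other end, EIF2C2 ranged 35.6-fold, and its lowest value came from 13 counts. EIF4EBP1, which holds back EIF4E, ranged 29.0-fold, from 9.29 CPM in HY cow 2920 to 270 in LY cow 7643. EIF2AK2, the interferon-induced kinase that senses double-stranded RNA, ranged 20.0-fold, from 6.52 to 130 CPM. The highest cow of EIF4EBP1 was therefore in LY, as was the highest cow of EIF2AK2, LY cow 3272. Among the EIF4E-binding proteins, the median was 46.9 CPM in HY and 47.1 in LY for EIF4EBP1, 18.9 and 20.5 for EIF4EBP2, and 19.0 and 13.3 for EIF4EBP3, with overlapping groups for all 3. In no role group did the ranges of HY and LY cows separate for the member with the highest mean level, such as EIF1 (605 to 2816 CPM against 684 to 3644) or EIF4A1 (1303 to 2422 against 903 to 2024).

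EIF3L and EIF3CL were higher in cows with a higher milk yield, and no other member passed the same test. For EIF3L the values were 125, 150 and 205 CPM (lowest, median, highest) in HY and 112, 122 and 164 in LY. For EIF3CL they were 138, 229 and 322 CPM in HY and 120, 173 and 265 in LY. The HY medians lay above the LY medians for both subunits, and the groups overlapped for both. The slope of EIF3CL was 0.080 ± 0.026 (SE) on the log2 scale per 100 units of breeding value, with an unadjusted p of 0.00692 from ordinary regression across all genes. For EIF3L it was 0.061 ± 0.018. At the study's threshold, an unadjusted p under 0.05, 2 of 47 members were called (4.26%), where 2.49% of all 12333 genes were. Both were higher, and 0.859% of all genes were called higher. EIF3L was known beforehand to be among them, and of the other 46 members 1 was called (2.17%), so that the share beside EIF3L was near that of all genes. The adjusted p was 1 for both, since no gene passed the Benjamini-Hochberg adjustment for milk yield.

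EIF3CL followed milk yield over the 21 cows with a Pearson r of 0.571 (permutation p = 0.00674) and a Spearman rho of 0.560 (permutation p = 0.0089), and r fell to 0.528 when the 2 cows with the most distant yield were left out. The study's mapping rates split the cows into 16 with a lower rate and 5 with a higher rate, 1 HY and 4 LY. Within the 16 cows, r was 0.662 for EIF3CL and 0.688 for EIF3L, and the 5 cows were too few for a value. EIF3CL and EIF3L stayed under 0.05 under each of 9 other settings and without any single cow. With the casein share or the summed macrophage markers as a covariate, the same 2 members were called, where 3.06% and 2.67% of all genes were.

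**Figure D1:**
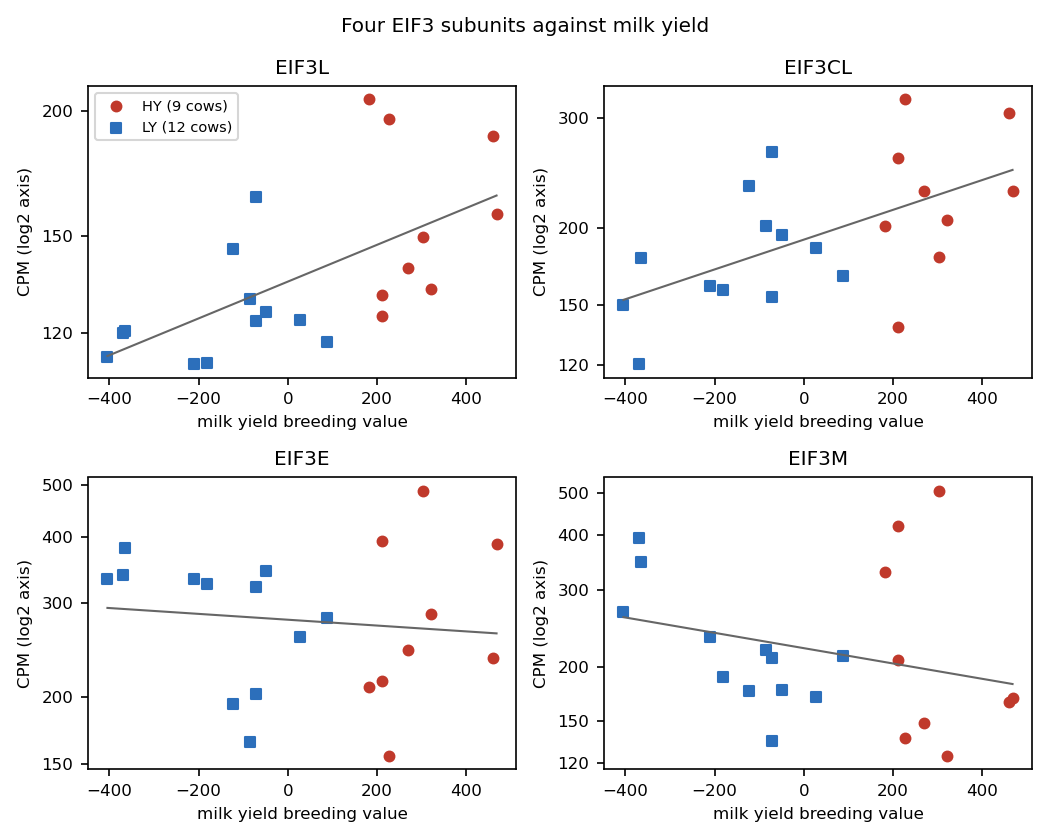
Level of 4 EIF3 subunits (TMM-scaled CPM, log2 axis) against the milk yield breeding value, 1 point per cow, with circles for HY (9 cows), squares for LY (12 cows) and the least squares line. EIF3L runs from 112 to 205 CPM and EIF3CL from 120 to 322 CPM with rising lines, while the lines of EIF3E and EIF3M fall slightly and their groups overlap.

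The rest of the family did not follow EIF3L member by member. Positive slopes on milk yield were found for 34 of 47 members (72.3%), where 49.7% of all genes had one, and the median slope was 0.024 against -0.0004 for all genes. Members share cells and libraries, so that these counts describe the family and test nothing. The positive slopes were small against their errors. The next members after EIF3CL were EIF2C2 (slope 0.14 ± 0.086, p = 0.111), EIF2AK1, the heme-regulated kinase (0.074 ± 0.047, p = 0.131), EIF4A1, the main helicase (0.051 ± 0.032, p = 0.132), EIF4A3 (0.049 ± 0.032, p = 0.134) and EIF4H (0.078 ± 0.054, p = 0.163), all unadjusted p-values of ordinary regression over all genes. The lowest p of a negative slope was that of EIF2B4 (-0.038 ± 0.025, p = 0.148).

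By role, 9 of 12 EIF3 subunits, 8 of 9 genes of the EIF4 group, 3 of 4 EIF2B subunits, 3 of 3 kinases and 4 of 4 of EIF5, EIF5A, EIF5A2 and EIF6 had a positive slope. So did 3 of 3 argonautes, 1 of 3 EIF4E-binding proteins, 1 of 4 genes of the EIF1 group and 2 of 5 of the EIF2 group. The 3 EIF3 subunits with a negative slope included EIF3M (-0.058 ± 0.048, p = 0.238 by ordinary regression). EIF3M belongs to the structural core of the complex. Its values were 125, 169 and 506 CPM in HY and 135, 210 and 394 in LY, and every LY cow lay within the range of the HY cows. EIF3E, another subunit, had 155, 246 and 488 CPM in HY and 165, 324 and 381 in LY. Subunits of the same complex thus had slopes from -0.058 to 0.080.

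**Figure D2:**
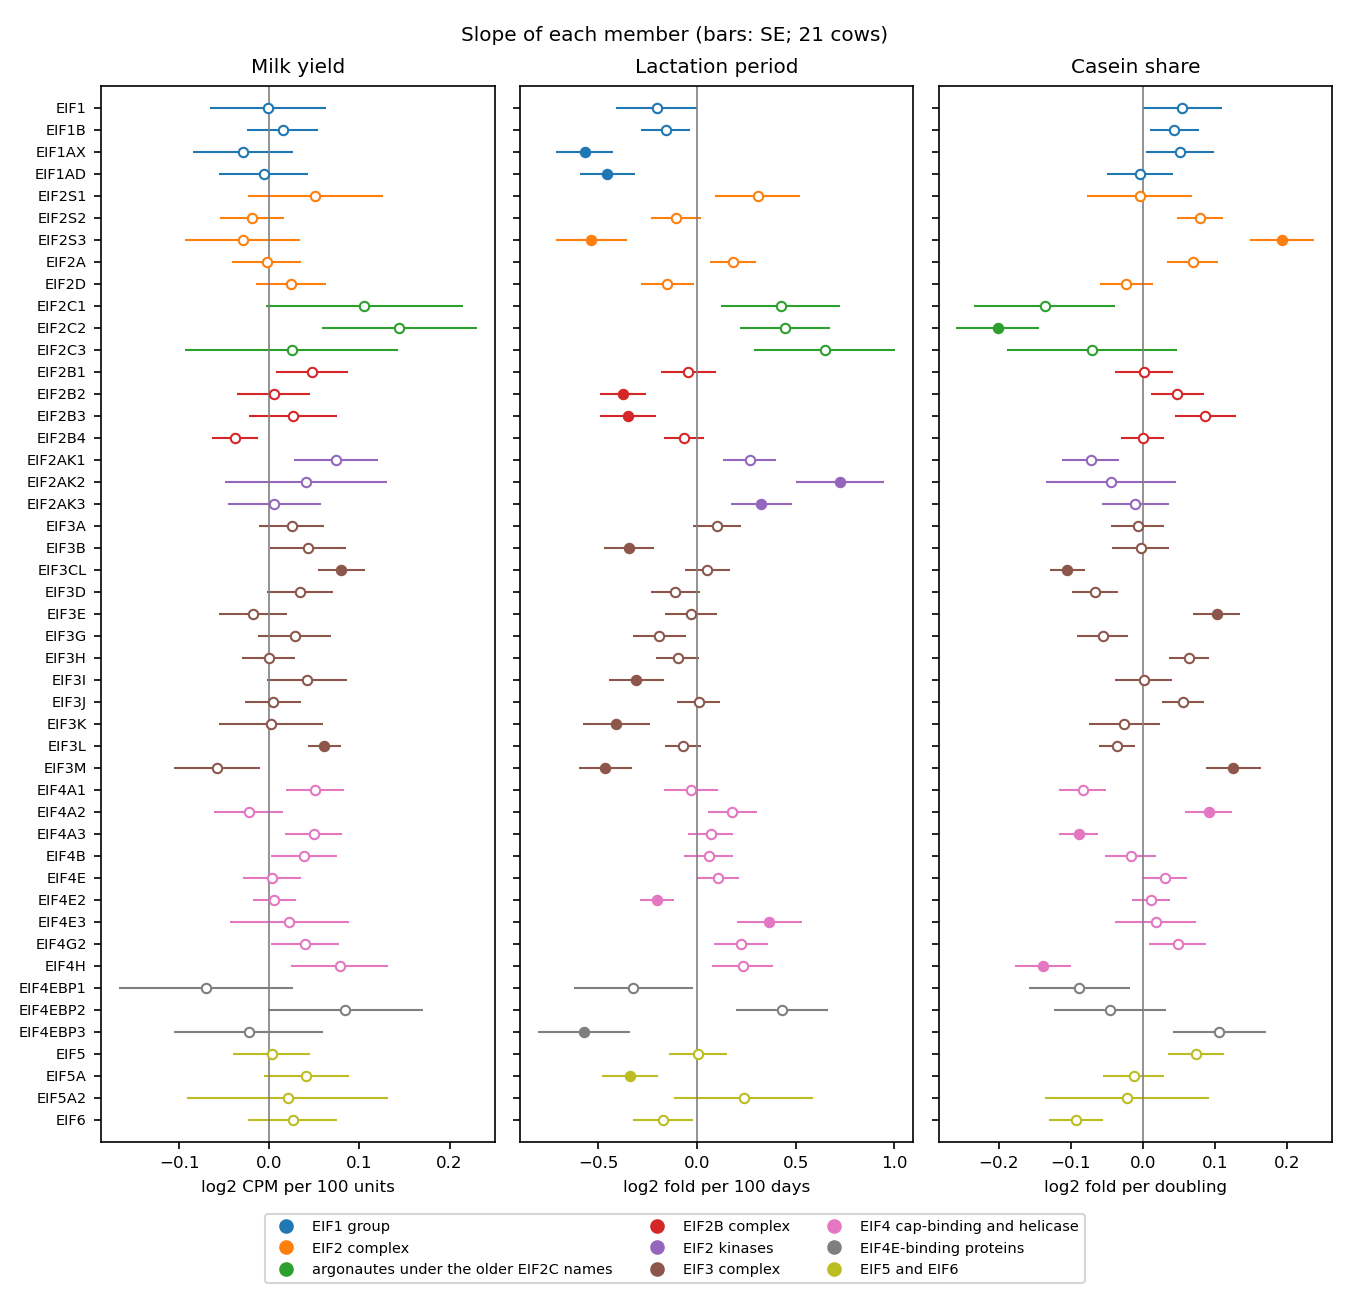
Slope of each of the 47 tested members on milk yield (per 100 units of breeding value), lactation period (per 100 days) and casein share (per doubling), on the log2 scale with SE bars, coloured by role. Filled points passed an unadjusted p under 0.05 for milk yield (2) and lactation period (15), or an adjusted p under 0.05 for casein share (8).

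With parity and lactation period in the regression on milk yield, 3 members were called (6.38%, against 3.01% of all genes). These were EIF3L (0.070 ± 0.017, unadjusted p = 0.000936), EIF3CL (0.077 ± 0.028, p = 0.0145) and EIF3B, a subunit conserved from yeast (0.073 ± 0.034, p = 0.048, ordinary regression), and all 3 had an adjusted p of 1. The call of EIF3B was lost without any of 12 single cows, and also with DESeq2 size factors (unadjusted p = 0.0508) and with casein genes removed (p = 0.0507). Against the breeding value of milk protein, the same 2 members as for milk yield were called (4.26%, against 2.30% of all genes). EIF3L had a slope of 0.21 ± 0.070 per 10 units (unadjusted p = 0.00805, ordinary regression) and EIF3CL 0.27 ± 0.10 (p = 0.014). The milk protein value also separated the groups, at 1.542 to 14.589 for HY cows and -13.24 to 1.268 for LY cows. EIF3L, known beforehand for yield, is part of the shares in both of these regressions, so neither share is independent evidence.

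Between the groups themselves, only EIF3L differed among the 47 members by edgeR's quasi-likelihood test (2.13%, against 4.70% of all genes). EIF3L was again the member known beforehand for yield. Its level was 0.33 ± 0.14 higher in HY on the log2 scale (unadjusted p = 0.0276, adjusted p = 0.999). EIF3CL stood at 0.35 ± 0.18 (p = 0.0598) and EIF3B at 0.40 ± 0.22 (p = 0.0774) in the same test. An exact two-sided permutation test of mean log2 values over 293930 splits of the cows gave 0.003 for EIF3L, 0.038 for EIF3CL and 0.0938 for EIF3B. The edgeR call of EIF3L was lost without HY cow 2814, 3057 or 3262, with a highest p of 0.0618. The fitted difference was positive for 38 of 47 members (80.9%, against 52.7% of all genes) and for 12 of 12 EIF3 subunits, but the difference in mean log2 values was -0.039 for EIF3E and -0.006 for EIF3M.

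Most of the members called against lactation period were lower in later lactation. An unadjusted p under 0.05 in edgeR's test was found for 15 of 47 members (31.9%), where 22.3% of all genes had one. Of these, 12 were lower (25.5%, against 12.8% of all genes) and 3 were higher (6.38%, against 9.58%). No member passed the adjustment over all genes, in which 3 genes (0.0243%) passed, and the lowest adjusted p of a member was 0.0639. Slopes are given as log2 fold per 100 days.

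EIF1AX, which helps the ribosome settle on the start codon, had the lowest p of the family, with a slope of -0.57 ± 0.14 (unadjusted p = 0.000616 in edgeR). In the 3 cows earliest in lactation it stood at 187, 206 and 506 CPM, and in the 3 latest at 162, 158 and 137. The level of every late cow was below that of every early cow, although the highest early value came from LY cow 2893 alone. Over all cows, r was -0.644 (permutation p = 0.00192) and rho -0.608 (permutation p = 0.00423), r was -0.765 without the 2 cows farthest from the median period, and -0.679 within the 16 cows of lower mapping rate. EIF1AD, a related protein, had a slope of -0.45 ± 0.14 (p = 0.0032 in edgeR). EIF1 (-0.20 ± 0.21, p = 0.332) and EIF1B (-0.16 ± 0.12, p = 0.216) were not called.

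Among the carriers of the initiator transfer RNA, EIF2S3, the gamma subunit that binds GTP, had a slope of -0.54 ± 0.18 on lactation period (unadjusted p = 0.00659 in edgeR), and EIF2S1 and EIF2S2 were not called. Of the exchange factor, 4 of 4 subunits had negative slopes, and EIF2B2 (-0.37 ± 0.12, p = 0.00362) and EIF2B3 (-0.35 ± 0.14, p = 0.0219) were called in that test. All 3 kinases had positive slopes. EIF2AK2 had 0.73 ± 0.22 (p = 0.00321), EIF2AK3, the kinase of endoplasmic reticulum stress, 0.33 ± 0.15 (p = 0.0455), and EIF2AK1, just outside the threshold, 0.27 ± 0.13 (p = 0.0571), all unadjusted in edgeR. EIF2AK2 stood at 19.2, 24.3 and 19.2 CPM in the 3 earliest cows and at 34.5, 46.6 and 36.7 in the 3 latest. The late cows were all above the early cows. Its r over all cows was 0.536 (permutation p = 0.0116) and its rho 0.544 (permutation p = 0.0118), with r at 0.554 without the 2 cows farthest from the median period and 0.553 within the 16 cows.

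Of the EIF3 subunits, 4 of 12 were called against lactation period, all lower. These were EIF3M (-0.46 ± 0.14, p = 0.0022), EIF3B (-0.34 ± 0.13, p = 0.0123), EIF3K (-0.41 ± 0.17, p = 0.0256) and EIF3I (-0.31 ± 0.14, p = 0.0358), unadjusted in edgeR. EIF3L (-0.071 ± 0.093, p = 0.453) and EIF3CL (0.053 ± 0.11, p = 0.649), the subunits called for milk yield, were not among them. The same complex thus held subunits that were called for yield and not for lactation period, and the reverse. The difference between subunits was not tested. Among the cap-binding proteins, EIF4E3 was higher (0.37 ± 0.17, p = 0.0367) and EIF4E2 lower (-0.20 ± 0.086, p = 0.0265) in the same test. EIF4E itself had 0.10 ± 0.11 (p = 0.331) and was not called. Of the proteins that hold back EIF4E, EIF4EBP3 was lower (-0.57 ± 0.23, p = 0.021), and EIF4EBP1 (-0.32 ± 0.30, p = 0.299) and EIF4EBP2 (0.43 ± 0.23, p = 0.0755) were not called. EIF5A was lower (-0.34 ± 0.14, p = 0.0255).

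**Figure D3:**
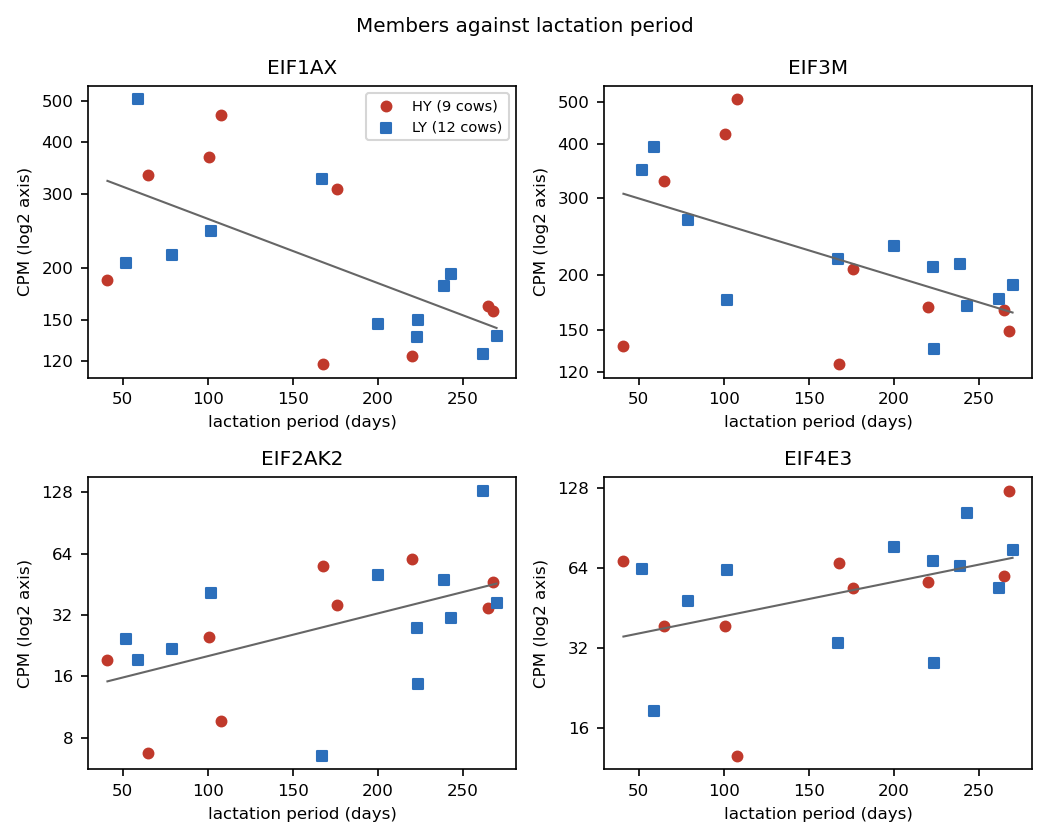
Level of EIF1AX, EIF3M, EIF2AK2 and EIF4E3 (TMM-scaled CPM, log2 axis) against the lactation period in days, 1 point per cow, with circles for HY, squares for LY and the least squares line. The lines of EIF1AX and EIF3M slope down and those of EIF2AK2 and EIF4E3 slope up, and HY and LY cows are mixed along each line.

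The calls against lactation period were not all equally steady. EIF1AX, EIF1AD, EIF2AK2, EIF2B2, EIF2B3, EIF2S3, EIF3B and EIF3M stayed under 0.05 without any single cow. The other 7 were lost without at least 1 cow, EIF2AK3 without any of 9. EIF4EBP3 was lost without LY cow 2893, with p = 0.135 in edgeR. With ordinary regression the calls of EIF2S3, EIF2AK3 and EIF4EBP3 were lost. For EIF2S3, r was -0.418 (permutation p = 0.059) and rho -0.314 (permutation p = 0.165) over all cows. Within the 16 cows of lower mapping rate, 14 members were called, 4 higher and 10 lower, where 20% of all genes were called. With the casein genes removed before scaling, 16 were called, 5 higher and 11 lower, where 22.2% of all genes were. The summed level of 10 T cell markers was 51.1 to 902 CPM among HY cows and 84.3 to 1447 among LY cows, with TRAT1 at 0 in some cows. This sum was not detectably related to lactation period (r = 0.393, permutation p = 0.0785, adjusted p = 0.378 over 18 relations, and rho = 0.255, permutation p = 0.264). Its r was 0.551 with the 2 most distant cows left out and 0.451 within the 16 cows. Of these markers, 1 of 10 was called higher in lactation period, as were 4 of 8 neutrophil markers, and 4 of 10 epithelial markers were called lower. With the summed T cell markers as a covariate, chosen after seeing the data, the calls for lactation period fell to 6 of 47, 1 higher and 5 lower, where 12.8% of all genes were called. These 6 were EIF1AX, EIF1AD, EIF2B2, EIF3M, EIF3K and EIF2AK2. The part of the other cell types in the result was not tested.

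Whether the slope on lactation period differed between HY and LY was tested as an interaction in edgeR. At an unadjusted p under 0.05, 0 of 47 members were called, where 2.61% of all genes were, and DESeq2 also called 0. The lowest unadjusted p of a member was 0.203, for EIF2D, a factor that releases and reloads small subunits. The slope of EIF2D in HY minus that in LY was -0.36 ± 0.28 (SE) per 100 days on the log2 scale.

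Most members were not called against the casein share, and those called were in part higher and in part lower in casein-rich libraries. The share was the part of counts on CSN1S1, CSN1S2, CSN2 and CSN3, and slopes are log2 fold per doubling of the share. After adjustment over all genes in edgeR, 8 of 47 members were called (17.0%), where 20.1% of all genes were, so that members were called about as often as other genes. EIF2S3, EIF3M, EIF3E and EIF4A2 were higher (8.51%, against 10.3% of all genes), and EIF3CL, EIF4A3, EIF4H and EIF2C2 were lower (8.51%, against 9.71%). The count fell to 4 without HY cow 2814 or LY cow 7643, where 15% and 13.5% of all genes were called. It was 13 without HY cow 3262, where 22.4% of all genes were. The median slope of the family was -0.0042 and that of all genes -0.003. The casein share itself was not detectably related to milk yield (r = -0.281, permutation p = 0.217, rho = -0.197, permutation p = 0.39) or to lactation period (r = -0.0893, permutation p = 0.696, rho = -0.105, permutation p = 0.648), with adjusted p of 0.574 and 0.895. With the 2 most distant cows left out, these r were -0.182 and -0.331, and within the 16 cows -0.356 and 0.0053.

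EIF2S3 had the steepest rise, 0.19 ± 0.045 per doubling (adjusted p = 0.00337 in edgeR). It stood at 69.0, 46.4 and 60.1 CPM in the 3 libraries with the lowest casein share and at 98.8, 348 and 177 in the 3 with the highest. EIF3M rose by 0.13 ± 0.038 (adjusted p = 0.0229) and EIF3E by 0.10 ± 0.032 (adjusted p = 0.0273). EIF3M stood at 207, 138 and 135 CPM in the 3 lowest libraries and at 209, 506 and 329 in the 3 highest. EIF3E overlapped at the ends of the scale, with 215, 155 and 203 CPM against 322, 488 and 209, the last from HY cow 3262. EIF2S2 and EIF3H had positive slopes with an unadjusted p under 0.05 that did not pass the adjustment.

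EIF3CL had the lowest p of the family against the casein share, with a slope of -0.10 ± 0.024 (adjusted p = 0.00318 in edgeR). It stood at 259, 322 and 265 CPM in the 3 libraries with the lowest share and at 154, 180 and 201 in the 3 highest, which did not overlap. Its call after adjustment was lost with the share in percent, and also with macrophage markers as a covariate. Against the log2 share its r was -0.812 (permutation p = 2e-05) and its rho -0.770 (permutation p = 0.0001), r was -0.754 with the 2 most distant cows left out and -0.800 within the 16 cows. EIF3L, by contrast, was not called (-0.036 ± 0.025, unadjusted p = 0.17), and whether its slope differed from that of EIF3CL was not tested. EIF3D was lower with an unadjusted p of 0.0454 and an adjusted p of 0.146. EIF2C2, an argonaute, fell by 0.20 ± 0.057 per doubling (adjusted p = 0.0144), and EIF2C1 and EIF2C3 had negative slopes without a call.

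**Figure D4:**
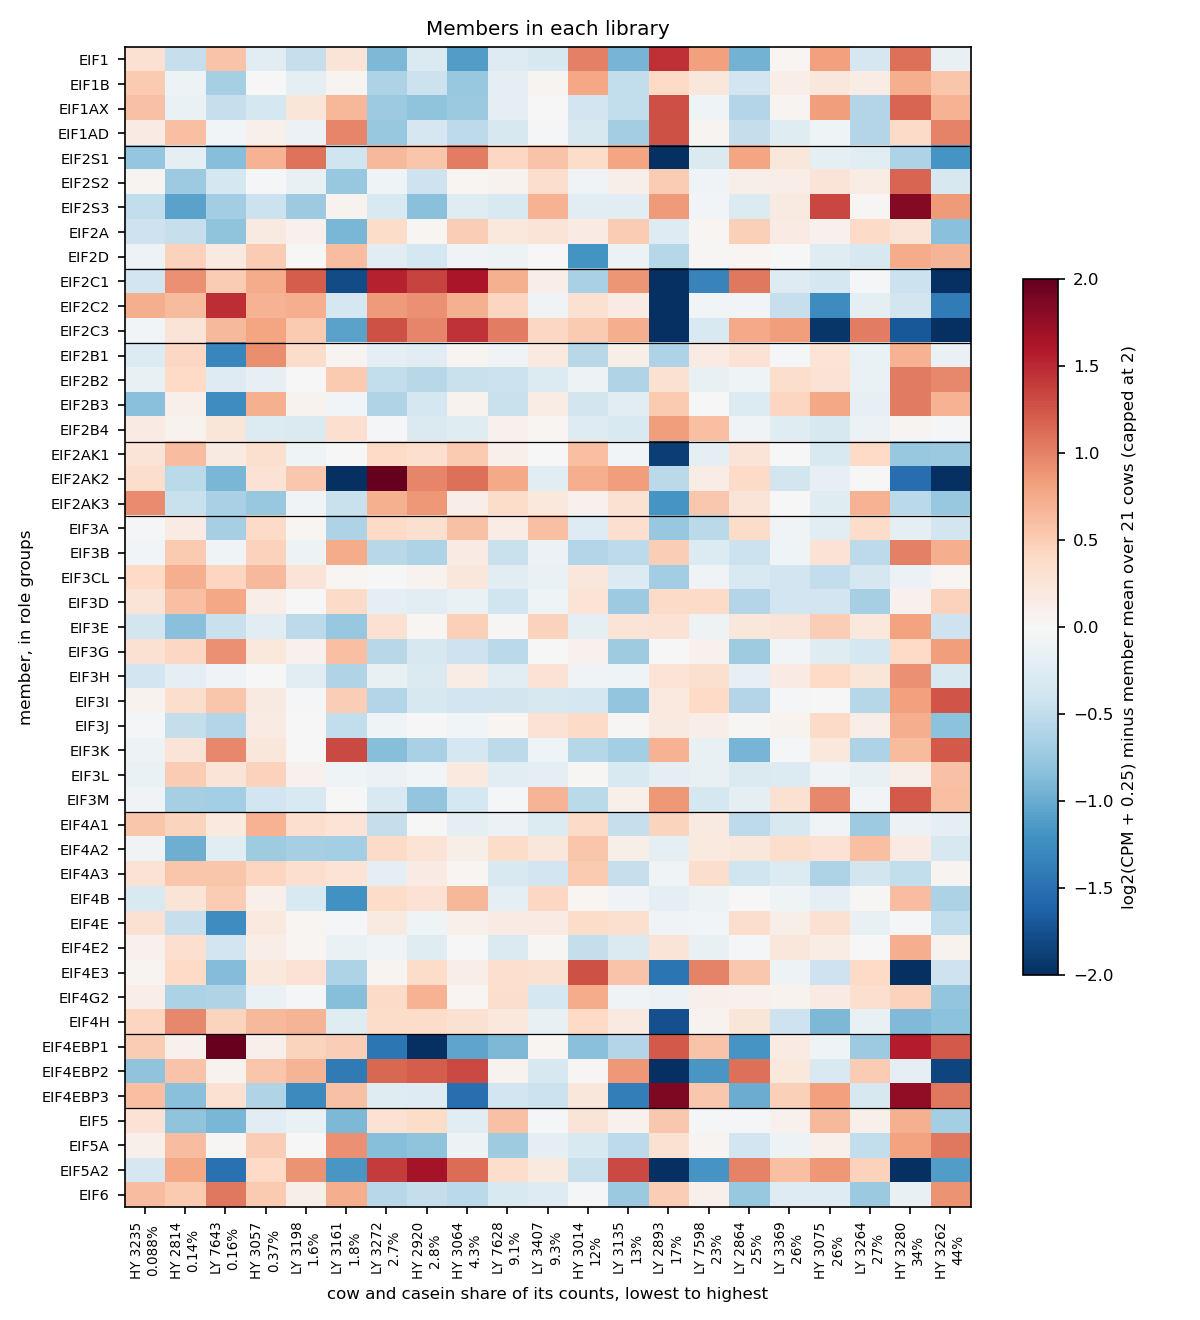
Level of each tested member in each library, as log2(CPM + 0.25) minus the mean of the member over the 21 cows (colour, capped at 2), with libraries ordered by casein share from 0.0876% to 44.15% and members in role groups. From left to right, EIF2S3, EIF3E and EIF3M mostly turn from blue to red, and EIF3CL, EIF4A3 and EIF4H mostly from red to blue. The last library, HY cow 3262, goes against this for EIF3E, EIF3CL and EIF4A3. LY cow 2893 and HY cows 3280 and 3262 stand out in several low members.

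The 3 EIF4A helicases parted along the casein share. EIF4A1 and EIF4A2 are close relatives that act in initiation. EIF4A2 rose by 0.091 ± 0.033 per doubling (adjusted p = 0.0487), EIF4A3 had a slope of -0.089 ± 0.027 (adjusted p = 0.0224), and EIF4A1 one of -0.083 ± 0.033 that did not pass (unadjusted p = 0.017, adjusted p = 0.0723), all in edgeR. EIF4A1 stood at 2187, 2026 and 1709 CPM in the 3 libraries with the lowest share and at 903, 1373 and 1305 in the 3 highest. EIF4A2 stood at 183, 97.5 and 164 CPM against 291, 215 and 154, which overlapped. EIF4H, which stimulates the helicase, fell by 0.14 ± 0.039 (adjusted p = 0.0132), from 207, 298 and 208 CPM to 137, 82.7 and 86.9. The call of EIF4A2 was the least steady of the 8, being lost without any of 15 single cows.

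A ratio of CPM within a library does not depend on the scaling between libraries. For 6 pairs of members, chosen after their values were seen, the log2 ratio was set against the casein share or the lactation period. EIF4A2 to EIF4A1 ran from 0.0482 in HY cow 2814 to 0.322 in LY cow 3264. It was higher in casein-rich libraries with r = 0.674 (permutation p = 0.00092, adjusted p = 0.00138 over the 6) and rho = 0.564 (permutation p = 0.00851). Leaving out the 2 cows with the most distant casein share gave r = 0.586, and the 16 cows gave 0.761. EIF3E to EIF3CL, subunits of the same complex, ran from 0.483 to 2.83 with r = 0.786 (permutation p = 5e-05, adjusted p = 0.0003) and rho = 0.735 (permutation p = 0.00022), with 0.712 and 0.788 in the same 2 checks. EIF2AK2 to EIF1AX ran from 0.0208 in LY cow 3161 to 1.05 in LY cow 3272 and was higher in later lactation, with r = 0.628 (permutation p = 0.00237, adjusted p = 0.00284), rho = 0.614 (permutation p = 0.00361), 0.689 with the 2 most distant cows left out and 0.658 within the 16 cows. EIF4A2 to EIF4A3 and EIF3M to EIF3CL were also higher in casein-rich libraries, with r = 0.723 (permutation p = 0.00034, adjusted p = 0.00068, rho = 0.660, permutation p = 0.00139) and r = 0.734 (permutation p = 0.00015, adjusted p = 0.00045, rho = 0.762, permutation p = 7e-05). In the same 2 checks their r were 0.691 and 0.755, and 0.725 and 0.706. EIF3M to EIF3A was the weakest pair, lower in later lactation with r = -0.521 (permutation p = 0.0157, adjusted p = 0.0157) but with a rho of -0.426 that did not pass (permutation p = 0.0553), and with -0.719 and -0.553 in the 2 checks. These ratios describe unequal change of 2 members in these libraries. Because the pairs were picked for their opposite slopes, a relation was built in, and the adjusted p-values cover only the 6 picked pairs. The ratios are no independent evidence of either slope.

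**Figure D5:**
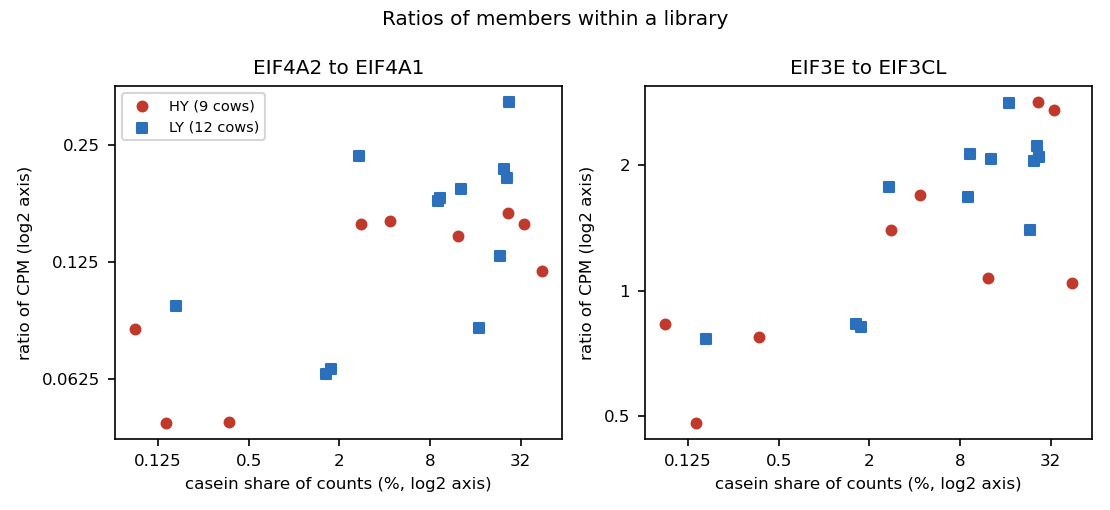
Ratio of CPM of EIF4A2 to EIF4A1 and of EIF3E to EIF3CL in each library (log2 axis) against the casein share of counts in percent (log2 axis), 1 point per cow, with circles for HY and squares for LY. With 0.25 added to each CPM, EIF4A2 to EIF4A1 spans 0.0482 to 0.322 and EIF3E to EIF3CL 0.483 to 2.83. Ratios are low in the libraries of lowest casein share.

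Markers of some cell types moved with the casein share. A direct relation of these markers with the members was not tested. The summed epithelial markers other than the caseins were higher in casein-rich libraries (r = 0.929, permutation p = 1e-05, the smallest that 100000 permutations can give, adjusted p = 9e-05 over 18 relations, and rho = 0.949, permutation p = 1e-05), with r at 0.914 when the 2 cows of most distant share were dropped and 0.935 within the 16 cows. Of these markers, 10 of 10 were called higher at the unadjusted threshold and 9 after adjustment. The summed level of 8 macrophage markers, none at 0 in any cow, was 1390 to 6663 CPM among HY cows and 1725 to 5748 among LY cows. It was lower in casein-rich libraries (r = -0.804, permutation p = 1e-05, adjusted p = 9e-05, and rho = -0.839, permutation p = 1e-05), with r at -0.768 with the 2 most distant cows left out and -0.811 within the 16 cows. Of the macrophage markers, 7 of 8 were called lower against the casein share at the unadjusted threshold, as were 4 of 6 B cell markers. With the summed macrophage markers as a covariate, chosen after seeing the data, 0 of 47 members were called at either threshold, where 10.5% of all genes were called unadjusted and 1.93% adjusted, and the slope of EIF3E on the casein share turned to -0.0089 (p = 0.848). The 2 measures share most of their variation, and their parts in these slopes cannot be told apart. Within the 16 cows of lower mapping rate, 2 members were called after adjustment, 1 higher and 1 lower, where 10% of all genes were. At the unadjusted threshold, 13 members were called over all cows (27.7%, against 32.0% of all genes), 6 higher (12.8%, against 15.6%) and 7 lower (14.9%, against 16.4%). With DESeq2 size factors, the calls for casein share were 16, 10 higher and 6 lower, where 31.9% of all genes were called. The same numbers resulted with casein genes removed before scaling, where 31.7% of all genes were called.

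Other genes that act in translation were taken as lists, also chosen with results of these data known. Of 18 tested genes around initiation that carry no EIF symbol, 0 were called for milk yield by ordinary regression, 3 for lactation period and 7 for casein share after adjustment in edgeR, 6 of them higher. Over all genes, 2.49% were called for milk yield, 22.3% for lactation period and 20.1% for casein share by the same rules. For casein share, 10.3% of all genes were called higher. The higher genes included PDCD4, which blocks EIF4A (0.20 ± 0.036 per doubling, adjusted p = 0.000269), PAIP2, which holds back the poly(A)-binding protein (0.18 ± 0.037, adjusted p = 0.00116), and PAIP1, which acts with that protein in the opposite sense (0.19 ± 0.047, adjusted p = 0.00681). For lactation period, the helicase DDX3X was higher (0.95 ± 0.25 per 100 days, unadjusted p = 0.000753, adjusted p = 0.0642 in edgeR), as was RPS6KB1, a kinase of the mTOR pathway (0.47 ± 0.16, p = 0.00815), and MCTS1, which acts in reinitiation, was lower (-0.58 ± 0.17, p = 0.00209).

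Of 11 genes on a list of elongation and termination factors and related genes, 4 were lower in later lactation at the unadjusted threshold and none higher. Over all genes, 12.8% were called lower and 9.58% higher. The 4 lower genes of the list were EEF1D (-0.86 ± 0.24, p = 0.00157 in edgeR), EEF1E1, EEF1B2 and EEF1G. EEF1B2 and EEF1D recharge the factor that brings transfer RNA to the ribosome, and EEF1G is bound to them. Against milk yield, 1 of the 11, the termination factor GSPT1, was called (0.060 ± 0.026, unadjusted p = 0.0327, ordinary regression), where 2.49% of all genes were. Of 11 genes that respond to EIF2 phosphorylation, 3 fell with the casein share after adjustment in edgeR, where 9.71% of all genes did. These were SESN2 (-0.30 ± 0.072, adjusted p = 0.00419), PPP1R15A, the phosphatase subunit that reverses the phosphorylation (-0.24 ± 0.070, adjusted p = 0.0181), and the chaperone HSPA5 (-0.095 ± 0.031, adjusted p = 0.0326). SESN2 was also higher in later lactation (1.0033 ± 0.35 per 100 days, unadjusted p = 0.00784, adjusted p = 0.109 in edgeR). It was the only 1 of these 11 genes called there, where 22.3% of all genes were called and 9.58% were called higher. For milk yield, 1 of the 11, the asparagine synthetase ASNS, was called (0.11 ± 0.050, unadjusted p = 0.0461, ordinary regression), where 2.49% of all genes were. ASNS was also 0.80 ± 0.25 higher in HY on the log2 scale (unadjusted p = 0.00347, adjusted p = 0.999 in edgeR). It was the only 1 of the 11 called between the groups, where 4.70% of all genes were.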

How the data were processed

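Milk somatic cell RNA of 21 Holstein cows, 9 HY and 12 LY per the labels, had been sequenced. The authors trimmed reads with Trimmomatic, mapped them to bosTau7 with TopHat2, which runs Bowtie2, and took gene counts from HTSeq. The deposited counts were whole numbers without normalization. Versions and the strand setting are not given in the sources used here. A row that names no gene (0.036% to 0.151% of counts) was left out, and 23 genes whose symbols had become dates could not be named.

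Tests ran over the 12333 genes that were counted in any cow. Milk yield and milk protein were tested by ordinary regression on log2(TMM CPM + 0.25), with expression as the response, which gives the same p as the reverse. Group, lactation period and casein share were tested with edgeR 4.0.16 (quasi-likelihood F test) in R 4.3.3, with Benjamini-Hochberg adjustment over all genes. The procedure was tested on simulated data. Correlations had 100000 permutations in numpy 2.4.6, with ranks from scipy 1.17.1. Alternatives included DESeq2 1.42.0, Huber regression (tuning constant 1.345), other scaling, a minimum of 10 counts, covariates and leaving out each cow. The members, lists, tests and named genes (EIF3 subunits, the 8 members of lowest p in each comparison with a mean of at least 1 CPM, the highest member of a role group, kinases, EIF4E-binding proteins, members next to the threshold and the 5 genes of lowest p in other lists; the extremes of range were added after their values were seen) were chosen with earlier results of these data known. No transcript lengths or sequences of the build were used. The floor of 3 counts covers counting error only, while the ± values (SE) and the p-values rest on the spread between cows.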

Additional observations from a re-analysis of the deposited data

How the results depend on the processing

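No paired analysis was possible because the labels give each cow a number of its own and the groups share 0 replicate numbers. Leaving out each cow in turn, the number of members called at an unadjusted p under 0.05 was 2 to 3 for milk yield, 2 to 4 for milk yield in the multiple regression, 2 to 3 for milk protein, 0 (without HY cow 2814 or 3057) to 3 (without HY cow 2920 or LY cow 3161) for HY against LY, 10 to 18 for lactation period and 11 to 18 for casein share. In the same fits, the share of all genes called was 2.15% to 3.97% for milk yield, 2.27% to 4.56% in the multiple regression and 1.77% to 3.11% for milk protein. It was 4.12% to 5.5% for HY against LY, 17% to 25.4% for lactation period and 27.2% to 34.5% for casein share. After adjustment, 4 to 13 members were called for casein share, where 13.5% to 22.4% of all genes were. The 4 came without HY cow 2814 or LY cow 7643, and the 13 without HY cow 3262. For HY against LY, where EIF3L alone was called, the count was 2 with DESeq2 (2.98% of all genes) and 2 with parity and lactation period as covariates (3.31%). The count was 3 with the casein share as covariate (6.19% of all genes) and 2 with macrophage markers as covariate (5.34%). For lactation period it was 6 with T cell markers as covariate (12.8% of all genes). For casein share it was 0 with macrophage markers as covariate at either threshold (10.5% of all genes unadjusted and 1.93% adjusted). After adjustment it was 2 within the lower mapping rate set (10% of all genes) and 5 with the share in percent (17.4%). The slope of EIF3E on the casein share reversed to -0.0089 with macrophage markers as covariate. Covariates of cell markers were added after seeing the data. Within these alternatives EIF3L and EIF3CL kept their calls for milk yield. In 21 cows no member passed the adjustment for milk yield, and the low counts of EIF2C1, EIF2C3 and EIF5A2 limited what could be said of them. The causes of these changes were not tested.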
